A study of Mus musculus with 6 samples.

Results

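The Ly6 surface antigen family was followed through 7 genes, Ly6a, Ly6c1, Ly6c2, Ly6d, Ly6e, Ly6g and Ly6i, taken by name from the 27998 genes of a single-cell count table. The 7 symbols are a chosen set and leave out other Ly6-named genes, which are given further on with the Ly6/uPAR fold. The cells were iGMPs, granulocyte-macrophage progenitors from bone marrow of C57BI/6 mice with a Lys-GFP reporter, immortalised with HOXA9 fused to the hormone-binding domain of the estrogen receptor. Every one of the 6 libraries carried this fusion, which holds the cells as progenitors while estradiol is present, and the cells grew in medium with stem cell factor (SCF).

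CAF-1 OFF libraries came from a clone with an IPTG-inducible hairpin against Chaf1b, which encodes part of CAF-1, the chaperone that lays histones on new DNA. They were taken at 0 h with 150.0 ng/ml estradiol, and after 48 h and 96 h with 500.0 µM IPTG and the estradiol kept. HOXA9 OFF libraries came from a clone with the control vector shCTRL, taken at 0 h with 150.0 ng/ml estradiol and 48 h and 96 h after the estradiol was washed out. Each arm is a single clonal line and each time point a single library, so clone and treatment cannot be told apart between the arms, and each later library was compared with the start of the same arm. Both later libraries of an arm therefore share 1 control.

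Ly6 proteins are small, disulphide-rich proteins that fold into the three-finger Ly6/uPAR domain and are held on the outer cell surface by a glycosylphosphatidylinositol (GPI) anchor. In blood formation they serve as stage markers: Ly6C marks monocytes and some granulocyte precursors, Ly6G marks neutrophils, Sca-1 (the product of Ly6a) marks stem cells and interferon-exposed leukocytes, and Ly6D marks early B-lineage cells. The Gr1 antibody used to follow granulocyte differentiation binds Ly6G and, less strongly, Ly6C, so the transcripts behind that stain are Ly6c1, Ly6c2 and Ly6g.

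In the RefSeq annotation of GRCm38.p6 the 7 members lie on chromosome 15 between 74762056 and 75159128, an interval of 397073 bases that holds 24 genes, 15 of them protein coding. Ly6d is the first, at chr15:74762056-74763567, followed by Ly6e at chr15:74955025-74959904, Ly6i at chr15:74979534-74983434 and Ly6a at chr15:74994877-74998031. Ly6c1 follows at chr15:75044018-75048920, Ly6c2 at chr15:75108161-75112066 and Ly6g at chr15:75155261-75159128. Promoter windows were at hand for 3 of the 7 members, Ly6c1, Ly6c2 and Ly6g, which are the genes behind the Gr1 stain. The 250 bases before the most upstream start in the promoter table are shown for each, because Ly6c2 and Ly6g changed and Ly6c1, a near copy of Ly6c2, stayed at a few UMIs. Capitals mark GAGGAAGT, a run that holds the GGAA core bound by ETS-family factors such as PU.1, and that was picked after these sequences were read. The Ly6c1 window is chr15:75048838-75049087 on the minus strand, the Ly6c2 window chr15:75111972-75112221 on the minus strand and the Ly6g window chr15:75155011-75155260 on the plus strand. The gene spans given for Ly6c1 and Ly6c2 reach into their windows, so the start used is not the outermost base of either gene.
Ly6c1: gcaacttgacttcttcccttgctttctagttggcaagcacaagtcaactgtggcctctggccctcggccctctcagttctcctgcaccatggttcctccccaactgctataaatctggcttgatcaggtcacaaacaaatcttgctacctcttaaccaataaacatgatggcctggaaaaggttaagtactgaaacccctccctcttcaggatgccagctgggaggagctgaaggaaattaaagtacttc
Ly6c2: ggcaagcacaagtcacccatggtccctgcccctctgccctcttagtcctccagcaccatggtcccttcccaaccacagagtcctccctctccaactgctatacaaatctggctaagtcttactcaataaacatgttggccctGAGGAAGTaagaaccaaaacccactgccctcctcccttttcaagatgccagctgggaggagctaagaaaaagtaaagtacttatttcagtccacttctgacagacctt
Ly6g: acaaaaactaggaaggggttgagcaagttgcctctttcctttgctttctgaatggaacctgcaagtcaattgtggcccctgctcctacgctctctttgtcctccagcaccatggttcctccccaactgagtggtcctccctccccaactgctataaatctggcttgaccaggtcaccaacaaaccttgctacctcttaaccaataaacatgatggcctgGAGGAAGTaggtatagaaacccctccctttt

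GAGGAAGT stood 108 bases before the Ly6c2 start and 31 bases before the Ly6g start, and was not in the Ly6c1 window shown. Each gene had a window for a second start, and there GAGGAAGT occurred 1 time for Ly6c1, 2 times for Ly6c2 and 1 time for Ly6g, so the motif did not separate Ly6c1 from the others over all listed starts. On either strand, 2.44% of all 32851 windows of 250 bases held GAGGAAGT, and the shorter GGAAGT inside it was in 19.7%. TATAAA, held by 12.4% of the windows, and CCAAT, held by 33.8%, were both in the Ly6c1 and Ly6g windows and not in the Ly6c2 window. TTGCNNAA, letters that occur in sites of C/EBP factors, was in the Ly6g window alone among the 3 and in 9.56% of all windows. A pair of GAAA runs 2 bases apart, the core of the interferon-stimulated response element, was in none of the 3 and in 2.98% of all windows. Over the aligned bases, the Ly6c1 and Ly6g windows were 83.5% identical, Ly6c2 and Ly6g 78.0%, and Ly6c1 and Ly6c2 75.9%. These matches describe letters in a window and not sites in use.

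The coding sequences of Ly6c1 and Ly6c2 were 97.7% identical, 387 of 396 aligned bases. Of the 722 words of 75 bases in the Ly6c2 transcript, 164 (22.7%) also stood in Ly6c1, so reads from these genes can be split or dropped, and their separate counts are uncertain. Ly6a and Ly6i were 86.4% identical in coding sequence and shared 6 of 745 such words (0.805%). No other pair of members shared a word. For Ly6g the transcript held only the coding part, so sharing at its 3′ end, where these libraries read, could not be seen.

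After the filters, 5872 of 7821 barcodes were kept, 473 to 1510 per library, with 3524285 to 5589486 UMIs per library. The median cell had 8660 UMIs in HOXA9 OFF at 0 h, 3535.5 at 48 h and 2043.5 at 96 h, against 5956 to 6571 in CAF-1 OFF. The limits on genes and mitochondrial UMIs removed 41.7% and 66.2% of the barcodes of the 0 h libraries and 0.198% to 18.3% of the others. Levels are UMIs summed over the cells of a library per 1000000 UMIs of that library (CPM). Shares of cells with a UMI are given after every cell was thinned to 1300 UMIs, which left out 1 to 134 shallower cells per library. Intervals are exact 95% Poisson intervals for CPM and exact 95% binomial intervals for shares and ratios, and all cover counting error only. With 1 library a group there is no replicate check and no test. Any pair of libraries shared 0 to 8 barcode sequences. Chaf1b, the target of the hairpin, had levels of 35.6, 3.22 and 6.49 CPM in the CAF-1 OFF arm at 0, 48 and 96 h and 51.5, 15.3 and 1.13 CPM in HOXA9 OFF, so it was also low in HOXA9 OFF at the later times.

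At 0 h the family was almost wholly Ly6e. The 7 members summed to 476 CPM in the CAF-1 OFF arm and 473 CPM in HOXA9 OFF, of which Ly6e held 93.1% and 97.6%. The sum rose to 698 and 822 CPM in the CAF-1 OFF arm and to 1040 and 1571 CPM in HOXA9 OFF at 48 h and 96 h. At 96 h Ly6c2 held 27.7% of the family's UMIs in CAF-1 OFF. In HOXA9 OFF at 96 h the sum was spread over Ly6e (46.0%), Ly6g (29.0%), Ly6c2 (22.8%), Ly6a (1.44%) and Ly6i (0.758%), so the arms ended with different members of the family. A 3′ library counts a molecule once whatever its length, so these shares compare molecules between genes, apart from how well each gene's end is captured.

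A member was counted as higher or lower when it was at least 2-fold from the 0 h library of its arm on the log2(CPM + 10) scale. In CAF-1 OFF, 1 of 7 members was higher at 48 h and 1 of 7 at 96 h, Ly6c2 both times. Of the 4789 genes that averaged 20 CPM or more, 2.76% were higher after 48 h and 5.22% after 96 h, and 0.0418% and 0.856% were lower. In HOXA9 OFF, 1 of 7 members was higher at 48 h (Ly6c2), beside 13% of all genes tested, and 4 of 7 were higher at 96 h (Ly6a, Ly6c2, Ly6g and Ly6i), beside 18.1%. No member was lower in any of the 4 comparisons, beside 19.6% of all genes lower in HOXA9 OFF at 48 h and 39.8% at 96 h. Only Ly6c2 and Ly6e could have been counted as lower. Ly6a, Ly6c1, Ly6d, Ly6g and Ly6i had at most 2 UMIs at 0 h, too few for a 2-fold fall once 10 CPM is added. The limit on the mean was met by 3 members, Ly6c2, Ly6e and Ly6g, and Ly6g met it only through HOXA9 OFF at 96 h, where it is high. The median log2 ratio of the 7 members was 0.03, 0.03, 0.05 and 1.13 in the 4 comparisons, in the order CAF-1 OFF 48 h and 96 h and HOXA9 OFF 48 h and 96 h, against 0, −0.08, −0.23 and −0.56 over all genes tested. Each of these member medians was the value of Ly6c1 or Ly6i, which had few UMIs outside HOXA9 OFF at 96 h. The background depends on the scaling in HOXA9 OFF. TMM factors move the median of all genes by 0.21 at 48 h and 0.36 at 96 h, median-of-ratios factors by 0.20 and 0.44, and leaving mitochondrial and ribosomal protein genes out of the total shifts it by −0.38 at 96 h. The higher and lower shares of all genes at 96 h were then 24.1% and 31.6% under TMM, 25.5% and 29.5% under median-of-ratios factors and 14.2% and 48.6% without those genes. At 48 h they were 15.9% and 14.6% under TMM and 15.6% and 14.9% under median-of-ratios factors.

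**Figure D1:**
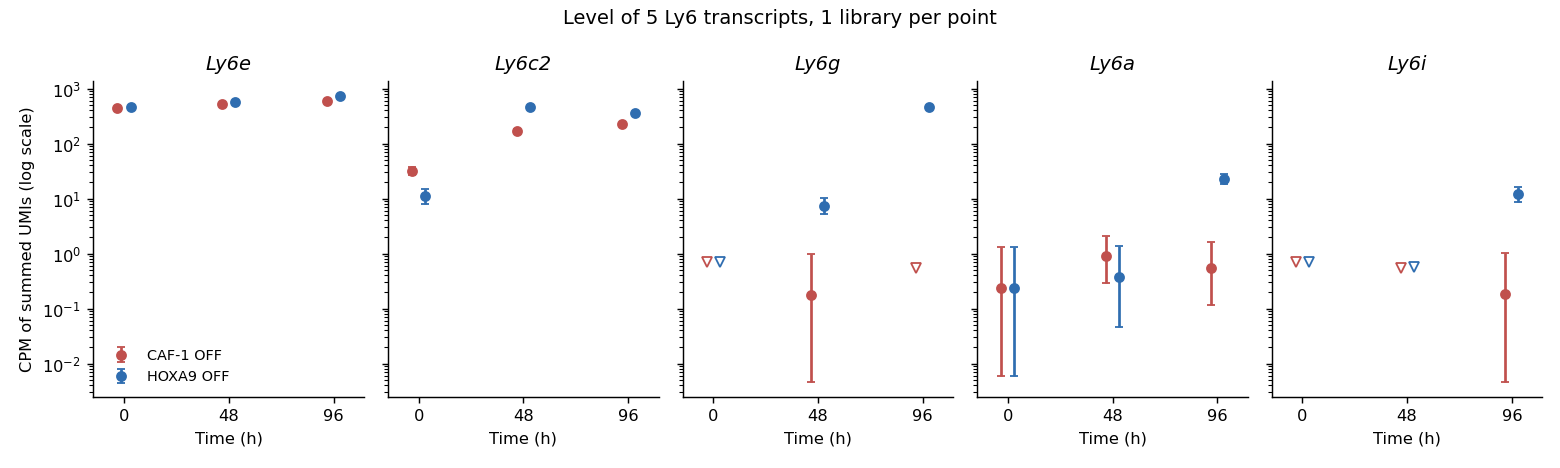
CPM (log axis) of Ly6e, Ly6c2, Ly6g, Ly6a and Ly6i against hours, red for CAF-1 OFF and blue for HOXA9 OFF, with 1 library per point; bars are exact 95% Poisson intervals and open triangles mark 0 UMIs, drawn at the level of 3 UMIs. Ly6c2 is higher after 0 h in both arms, Ly6g, Ly6a and Ly6i climb in HOXA9 OFF at 96 h, and Ly6e stays between 443 and 722 CPM in all 6 libraries.

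Ly6c2 encodes Ly6C, the monocyte and granulocyte-precursor antigen, and was the member that passed 2-fold in both arms. Its CAF-1 OFF levels were 32.3 CPM (27.1 to 38.2) at 0 h, then 169 CPM (158 to 180) after 48 h, and then 228 CPM (215 to 241). The HOXA9 OFF levels at the same times were 11.0 CPM (8.04 to 14.6), 464 CPM (446 to 483) and 359 CPM (339 to 379). No interval of a later library overlapped that of its 0 h library. The ratio to 0 h was 5.23 (4.37 to 6.31) at 48 h and 7.07 (5.92 to 8.50) at 96 h in CAF-1 OFF, and 42.3 (31.6 to 57.9) and 32.7 (24.3 to 44.9) in HOXA9 OFF. Part of the gap between the arms was present without treatment, since at 0 h the level was 2.94-fold lower (2.09 to 4.20) in HOXA9 OFF than in CAF-1 OFF. At matched times after induction it was 2.75-fold (2.55 to 2.96) higher in HOXA9 OFF at 48 h and 1.57-fold (1.45 to 1.70) higher at 96 h. From 48 h to 96 h it went up in CAF-1 OFF, by a ratio of 1.35 (1.24 to 1.47), and down in HOXA9 OFF, 1.29-fold lower (1.21 to 1.39).

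The higher Ly6c2 level went with more cells in which it was found. Thinned cells with a Ly6c2 UMI were 2.53% (1.45 to 4.07) of all CAF-1 OFF cells before induction, 12.5% (10.4 to 14.8) at 48 h and 20.95% (18.3 to 23.8) at 96 h. In HOXA9 OFF they made up 0.847% (0.231 to 2.16), 27.0% (24.6 to 29.4) and 24.5% (22.2 to 26.9). Without thinning the shares were 4.48%, 26.8% and 42.5% in the CAF-1 OFF arm and 2.54%, 40.7% and 31.4% in HOXA9 OFF. Per cell with a UMI, the mean was 4.69, 3.81 and 3.18 Ly6c2 UMIs in the CAF-1 OFF arm and 3.83, 4.31 and 2.67 in HOXA9 OFF. In the CAF-1 OFF arm, where median depths were alike, the positive cells held no more at 96 h than at 0 h. In HOXA9 OFF the median depth fell from 8660 to 2043.5 UMIs, so the raw means do not show how the level per positive cell changed. The transcript was already concentrated in a few cells before induction. At 0 h, the 5 cells with the most Ly6c2 UMIs held 62 of 136 UMIs (45.6%) in the CAF-1 OFF arm and 38 of 46 (82.6%) in HOXA9 OFF, and at 96 h the top 5 cells held 8.21% and 12.1%.

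Ly6c1, the near copy of Ly6c2, had 2, 4 and 2 UMIs in the CAF-1 OFF arm and 0, 2 and 0 in HOXA9 OFF. No change was detectable at this depth, where 3 UMIs are worth 0.537 to 0.851 CPM. Given the shared sequence, the low count of Ly6c1 and the level of Ly6c2 are best read as a pair.

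Ly6g, the neutrophil antigen, was found in HOXA9 OFF after estradiol withdrawal and hardly elsewhere. It had 0, 1 and 0 UMIs in the CAF-1 OFF arm and 0 UMIs in HOXA9 OFF at 0 h, and then 39 UMIs (7.34 CPM, 5.22 to 10.0) at 48 h and 1607 UMIs (456 CPM, 434 to 479) at 96 h. Against a floor of 3 UMIs in the 0 h library this is at least 10.3-fold higher at 48 h and at least 637-fold higher at 96 h. The step from 48 h to 96 h was 62.1-fold (45.2 to 87.6), while Ly6c2 fell over the same interval. By thinned cells, 0.872% (0.451 to 1.52) had a Ly6g UMI at 48 h and 33.6% (31.1 to 36.1) at 96 h, at median depths of 3535.5 and 2043.5 UMIs. The background share was that of the 0 h library, 0 of 472 thinned cells, which at the floor of 3 cells allows up to 0.636%. In CAF-1 OFF at 96 h it was 0 of 902, which at the same floor allows up to 0.333%. The arms therefore differed in Ly6g at 96 h by at least 820-fold, with the floor of 3 UMIs in the CAF-1 OFF library.

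Read as the antigens of the Gr1 antibody, Ly6c1, Ly6c2 and Ly6g gave at least 1 UMI in 16 of 633 thinned CAF-1 OFF cells at 0 h (2.53%, 1.45 to 4.07), 114 of 907 at 48 h (12.6%, 10.5 to 14.9) and 189 of 902 at 96 h (20.95%, 18.3 to 23.8). In HOXA9 OFF the counts were 4 of 472 (0.847%, 0.231 to 2.16), 380 of 1376 (27.6%, 25.3 to 30.1) and 664 of 1376 (48.3%, 45.6 to 50.9). In both arms the share was higher at each later time, and the intervals of the arms did not overlap at 48 h or 96 h. In CAF-1 OFF every such cell at 0 h and 96 h had Ly6c2, and at 48 h 1 of the 114 cells counted had no Ly6c2 UMI. Of HOXA9 OFF cells at 96 h, 24.5% had Ly6c2 and 33.6% had Ly6g, and 9.81% had both, against 8.22% from the product of the single shares.

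**Figure D2:**
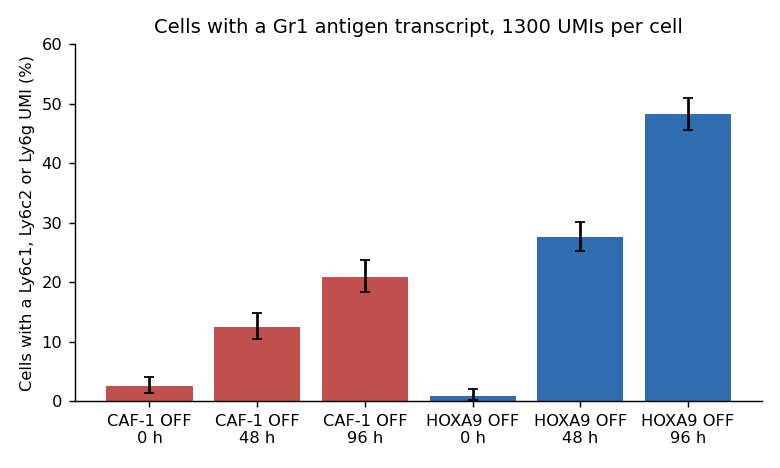
Percent of cells, thinned to 1300 UMIs each, with at least 1 UMI of Ly6c1, Ly6c2 or Ly6g in each of the 6 libraries; bars start at 0 and error bars are exact 95% binomial intervals over cells. CAF-1 OFF goes from 2.53% to 12.6% and 20.95%, and HOXA9 OFF from 0.847% to 27.6% and 48.3%.

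The cells with a Gr1 antigen UMI carried different lineage genes in the arms. In CAF-1 OFF at 48 h, 85.1% of them had a UMI of Elane, neutrophil elastase of the early granules, against 35.7% of the other cells, and at 96 h 79.4% against 53.6%. Pf4, the platelet chemokine of megakaryocytes, was in 64.9% against 26.4% at 48 h and 88.4% against 78.1% at 96 h. Cpa3, a mast cell protease, went the other way, with 36.0% against 61.8% at 48 h and 71.4% against 88.6% at 96 h. Cd34, a progenitor antigen, was in 49.7% of Gr1 cells and 58.9% of other cells at 96 h, and Car2, carbonic anhydrase of the erythroid lineage, in 23.3% and 27.6%. Ltf, lactoferrin of the later granules, was in 0 of 189 Gr1 cells at 96 h, which at the floor of 3 cells allows up to 1.59%, and S100a8 was in 4.76% of them against 0.842% of the others at 96 h. In HOXA9 OFF at 96 h, Ltf was in 67.0% of Gr1 cells and 42.4% of others, S100a8 in 99.5% and 98.6%, and Itgam (CD11b) in 27.3% and 24.6%. There Elane was in 0.151% and 0.140%, and Pf4 in 0.151% and 0.702%. HOXA9 OFF at 48 h stood between, with Elane in 30.8% of Gr1 cells against 15.5% of the others and S100a8 in 70.3% against 42.1%. Ltf and Itgam did not divide the cells there, at 8.16% against 7.63% and 16.1% against 17.7%. Prg2, the eosinophil granule protein, was in 38.7% against 61.5%, and Cpa3 in 1.32% against 18.0%. Free RNA in the droplets may give UMIs of the most abundant of these genes in cells that do not make them, and its part in these shares was not tested.

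Set out by level, Ly6c2 followed Elane in CAF-1 OFF most closely at the early times. At 0 h, cells with an Elane UMI (66 cells) had 309 CPM of Ly6c2 and cells without (567 cells) 2.11 CPM, a ratio of 146 (72.0 to 346). At 48 h the values were 365 and 28.4 CPM, a ratio of 12.9 (10.4 to 16.1), and at 96 h 320 and 92.8 CPM, a ratio of 3.45 (2.96 to 4.03). The level in cells with an Elane UMI thus stayed near that of 0 h while the level in cells without one rose at each time. Elane was read after thinning and Ly6c2 from all UMIs of the same cells. The class without an Elane UMI can therefore hold cells whose Elane UMIs were lost in thinning. Elane itself went from 129 to 913 and 1386 CPM in the CAF-1 OFF arm. The part of such cells in the rise and in the falling ratio was not tested. The HOXA9 OFF values at 48 h were 693 and 392 CPM, a ratio of 1.77 (1.63 to 1.92).

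**Figure D3:**
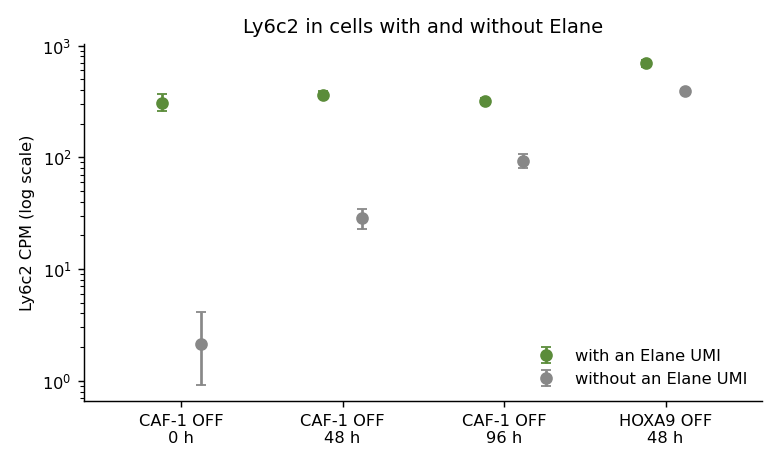
Ly6c2 CPM (log axis, all UMIs) in cells with and without an Elane UMI after thinning, in the 4 libraries with at least 50 cells in each class. Bars are exact 95% Poisson intervals. In CAF-1 OFF the ratio falls from 146 at 0 h to 12.9 and 3.45, through the cells without an Elane UMI, which go from 2.11 to 28.4 and 92.8 CPM.

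Other lineage genes also divided the Ly6c2 signal. Cells with a Cpa3 UMI had 75.3 CPM of Ly6c2 against 300.2 CPM in cells without at 48 h in CAF-1 OFF (3.99-fold lower), and 165 against 601 CPM at 96 h (3.64-fold lower). The HOXA9 OFF values at 48 h were 52.4 and 534 CPM (10.2-fold lower). Cells with a Pf4 UMI were higher in Ly6c2 in CAF-1 OFF, 331 against 98.0 CPM at 48 h and 252 against 131 CPM at 96 h. Cells in HOXA9 OFF at 48 h with at least 1% of their UMIs from Prg2 had 35.8 CPM, 15.1-fold lower than the 541 CPM of the rest. In these splits Ly6c2 was thus lower in cells with Cpa3 or Prg2 and higher in cells with Elane or, in CAF-1 OFF, Pf4. Splits by Car2 and Cd34 changed direction between libraries. Cells with Car2 were 8.67-fold lower (2.35 to 72.3) in CAF-1 OFF at 0 h and 7.28-fold higher (3.89 to 13.6) in HOXA9 OFF at 0 h. Cells with Cd34 were 4.90-fold lower (3.28 to 7.49) in CAF-1 OFF at 0 h and 1.49-fold higher (1.30 to 1.69) in HOXA9 OFF at 48 h. All these are splits within 1 library, whose cells are not replicates.

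Ly6e, a broadly expressed and interferon-inducible member, had the highest level of the family in all 6 libraries and was the steadiest of the members detected in every library. Its CAF-1 OFF levels were 443 CPM (423 to 464), 527 CPM (508 to 546) and 593 CPM (572 to 614) at 0, 48 and 96 h. Its HOXA9 OFF levels were 461 CPM (441 to 482), 568 CPM (548 to 589) and 722 CPM (694 to 751). The arms started alike in level within counting error, with a ratio of 1.04 (0.976 to 1.11) at 0 h, and every later library was above its 0 h library. The ratio to 0 h was 1.19 (1.12 to 1.26) and 1.34 (1.26 to 1.42) in CAF-1 OFF at 48 h and 96 h, and 1.23 (1.16 to 1.30) and 1.57 (1.48 to 1.66) in HOXA9 OFF. On the log2(CPM + 10) scale the last is 0.64, which became 1.09 under TMM factors and 1.19 under median-of-ratios factors, past 2-fold, and 0.22 with a total free of mitochondrial and ribosomal protein genes. It stayed above 0 under each.

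The spread of Ly6e over cells went different ways in the arms. In CAF-1 OFF the share of thinned cells with a Ly6e UMI was 44.5% (40.6 to 48.5), 48.0% and 54.4% (51.1 to 57.7). In HOXA9 OFF it was 46.8% (42.2 to 51.4), 44.2% and 37.1% (34.5 to 39.7), while the CPM of the same library rose, so no order is read from these shares. Without thinning the shares were 87.9%, 91.4% and 92.8% in the CAF-1 OFF arm and 94.3%, 68.5% and 45.7% in HOXA9 OFF. Per cell, the median was 3.92, 5.02 and 5.63 Ly6e UMIs per 10000 in the CAF-1 OFF arm and 4.13, 3.77 and 0 in HOXA9 OFF. The 99th percentile went from 15.0 to 15.2 and 18.1 in the CAF-1 OFF arm and from 19.1 to 28.9 and 46.0 in HOXA9 OFF. In HOXA9 OFF, Ly6e was thus read in fewer cells and at higher levels in some of them, at a median depth that fell from 8660 to 2043.5 UMIs.

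Cell classes within the libraries placed those cells. In CAF-1 OFF, splitting the cells by Elane, Pf4, Car2, Cpa3 or Cd34 moved the Ly6e level little, with ratios from 0.827 to 1.16, in contrast to Ly6c2. In HOXA9 OFF at 48 h, cells with at least 1% of UMIs from Prg2 (223 cells) had 1001 CPM of Ly6e and the other 1181 cells 490 CPM, a ratio of 2.04 (1.88 to 2.21). Cells with a Cpa3 UMI had 1073 against 485 CPM, a ratio of 2.21 (2.04 to 2.40). Ly6c2 had been low in both of these classes.

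S100a8 and S100a9, the calprotectin subunits that fill the cytoplasm of neutrophils, divided the members at 96 h. Of the 1510 HOXA9 OFF cells, 1301 had at least 1% of their UMIs from the pair and 209 had less, and 45 cells lay within a factor of 2 of this threshold. Ly6e was at 367 CPM in the S100-rich cells and 2080 CPM in the others, 5.66-fold lower (5.23 to 6.14) in the S100-rich cells. Ly6c2 was at 317 and 516 CPM, a ratio of 1.63 (1.44 to 1.84) in favour of the cells poor in S100 transcripts. Ly6g was divided the other way, at 572 CPM in the S100-rich cells (1597 UMIs) and 13.7 CPM in the others (10 UMIs), a ratio of 41.7 (22.6 to 87.2). Ly6a was at 3.58 and 95.9 CPM, 26.8-fold lower (13.7 to 58.3) in the S100-rich cells, and Ly6i at 2.51 and 47.9 CPM, 19.1-fold lower (8.37 to 51.0). Ly6g thus stood apart from the 4 other members detected in this library, all of which were higher in CPM in the S100-poor cells. Split by Ltf at 0.2% of UMIs, with 218 cells within a factor of 2 of that threshold, Ly6g was at 874 CPM in the Ltf-rich cells against 188 CPM (4.65, 4.15 to 5.21) and Ly6e at 153 against 1087 CPM, 7.12-fold lower (6.18 to 8.24). Ly6c2 was not divided by Ltf beyond counting error, at 344 against 368 CPM, a ratio of 0.936 (0.834 to 1.05).

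**Figure D4:**
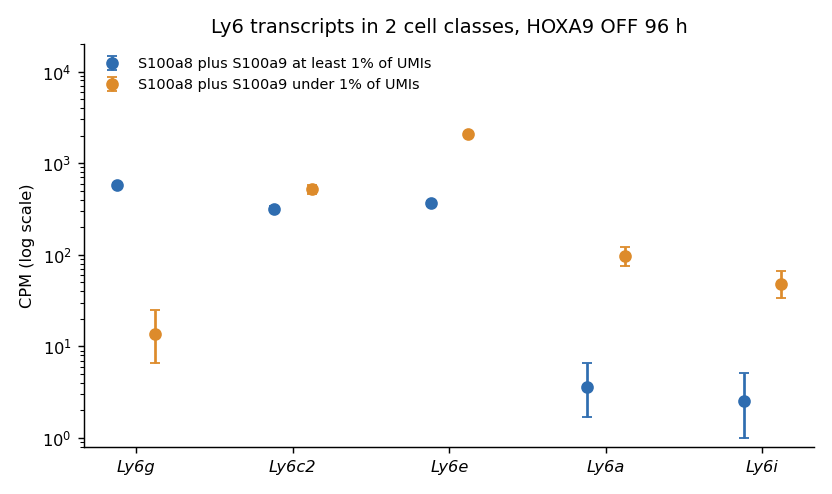
CPM (log axis) of Ly6e, Ly6c2, Ly6g, Ly6a and Ly6i in HOXA9 OFF at 96 h, in 1301 cells with at least 1% of UMIs from S100a8 and S100a9 and in the other 209 cells; bars are exact 95% Poisson intervals. Ly6g is at 572 against 13.7 CPM, and the other members are higher in the S100-poor cells, Ly6e at 2080 against 367 CPM.

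Put as shares of each transcript, the S100-poor cells of HOXA9 OFF at 96 h were 13.8% of cells and 20.7% of all UMIs. They held 59.7% of Ly6e UMIs (57.8 to 61.6), 29.8% of Ly6c2 UMIs, 87.5% of Ly6a UMIs (78.2 to 93.8), 83.3% of Ly6i UMIs and 0.622% of Ly6g UMIs. At 48 h, when the S100-poor cells were 84.8% of cells and 88.5% of UMIs, they held 94.9% of Ly6e, 86.3% of Ly6c2 and 38.5% of Ly6g UMIs. The S100-poor cells at 96 h were deeper, with a median of 3068 against 1952 UMIs, and carried other lineages. Their summed eosinophil list was at 14698 CPM against 210 CPM, mostly Prg2 (13924 against 171 CPM), with 3 of 6 genes at least 2-fold higher. Their summed monocyte list was at 2083 against 219 CPM. Of its 7 genes with more than 3 UMIs in a class, which leaves out Ly86, 6 were higher. Among them were the chemokine receptor Ccr2 (305 against 7.16 CPM) and Ms4a6c (933 against 41.9 CPM). Their interferon response list was at 12047 against 7437 CPM, with 8 of 18 genes higher and 0 lower. Beside these counts, 17.6% of all 4304 genes averaging 20 CPM or more over the classes were at least 2-fold higher in the S100-poor cells and 5.13% lower. Most other marker lists were also higher there, the early granulocyte list with a ratio of 2.49, the mast cell or basophil list 2.77, the erythroid list 16.6, the megakaryocyte list 11.5 and the B cell list 6.70, at sums of 35.6 to 367 CPM. What each of these contributes to the Ly6 levels was not tested.

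Ly6a and Ly6i, neighbours on the chromosome and both linked to interferon in leukocytes, appeared late and in few cells. Ly6a had 1, 5 and 3 UMIs in the CAF-1 OFF arm and 1, 2 and 80 in HOXA9 OFF. Its level in HOXA9 OFF at 96 h was 22.7 CPM (18.0 to 28.3), with a ratio of 95.1 (16.6 to 3803) to the single UMI at 0 h and 60.3 (16.1 to 506) to the 2 UMIs at 48 h. Ly6i had 0, 0 and 1 UMIs in the CAF-1 OFF arm and 0, 0 and 42 in HOXA9 OFF, 11.9 CPM (8.59 to 16.1) at 96 h and at least 16.6-fold higher than at 0 h. The Ly6a UMIs came from 38 cells with up to 8 UMIs each and the Ly6i UMIs from 29 cells with up to 4. After thinning, 1.89% (1.24 to 2.76) of cells had a Ly6a UMI and 0.799% (0.400 to 1.43) a Ly6i UMI, against at most 0.212% for either gene in the other libraries. Of the 38 Ly6a cells, 36 (94.7%) also had Ly6e, and 8 cells had both Ly6a and Ly6i.

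Together 59 cells of HOXA9 OFF at 96 h had a UMI of Ly6a or Ly6i, a split made after the values were seen. They were deeper than the other 1451 cells, with a median of 3603 against 2016 UMIs, which by itself makes a UMI of a rare transcript more likely. Their interferon list summed to 20403 against 7572 CPM, a ratio of 2.69 (2.61 to 2.78), with 13 of 18 genes at least 2-fold higher and 0 lower. Of all 4327 genes averaging 20 CPM or more over the classes, 14.7% were higher and 5.82% lower. Ifit3 was at 969 against 226 CPM, Ifi27l2a at 3675 against 954 CPM and Irf7, the master factor of the type I interferon response, at 951 against 270 CPM. Their monocyte list summed to 3421 against 413 CPM, a ratio of 8.28. Again without Ly86, 6 of 7 genes were higher, among them Ccr2 (604 against 32.4 CPM), Ms4a6c (1551 against 136 CPM) and the Fc receptor Fcgr1 (480 against 44.6 CPM). Their late granulocyte list was at 26108 against 151454 CPM, with 7 of 8 genes lower, and the eosinophil list at 662 against 3386 CPM, with 3 of 6 genes lower. Lists at lower sums were also higher, the plasmacytoid dendritic list with a ratio of 4.64, which rests on Bst2 of the interferon list, the B cell list with 6.15 (2.95 to 12.1) and the megakaryocyte list with 4.89 (2.31 to 9.61). Among the other members, Ly6e was at 2839 against 578 CPM, a ratio of 4.91 (4.49 to 5.38), Ly6c2 at 964 against 317 CPM, a ratio of 3.04 (2.61 to 3.52), and Ly6g at 88.9 against 481 CPM, 5.41-fold lower. The cells with Ly6a or Ly6i thus had more monocyte and interferon gene UMIs, fewer granulocyte and eosinophil gene UMIs, and more Ly6c2 and Ly6e. The S100-poor cells, which held 87.5% of Ly6a and 83.3% of Ly6i UMIs, shared much of this. They too were higher in the monocyte list (ratio 9.49), the interferon list, Ly6c2 and Ly6e. Their late granulocyte list was lower as well, but it holds S100a8 and S100a9, the genes of the split, which largely fixed that difference. Their eosinophil and early granulocyte lists were higher instead. The 59 cells were not compared with other S100-poor cells.

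**Figure D5:**
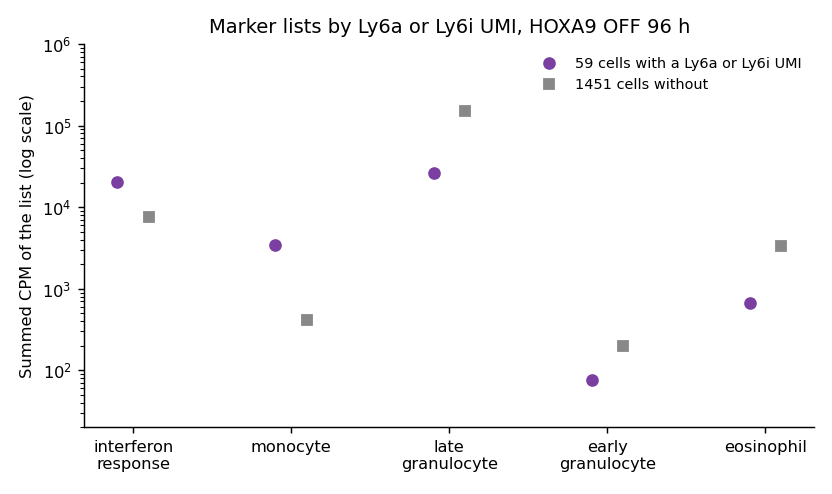
Summed CPM (log axis) of marker and interferon gene lists in HOXA9 OFF at 96 h, in the 59 cells with a Ly6a or Ly6i UMI (circles) and the 1451 cells without (squares); no error bars are drawn. The interferon list is at 20403 against 7572 CPM and the monocyte list at 3421 against 413 CPM, while the late granulocyte list is at 26108 against 151454 CPM and the early granulocyte list at 75.5 against 201 CPM.

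Ly6d, the early B-lineage member, had 0 UMIs in all 6 libraries. With 3 UMIs as the floor this allows up to 0.537 to 0.851 CPM and, over the thinned cells, shares of up to 0.218% to 0.636%.

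Pairs of members in the same cell followed these classes only in part. In CAF-1 OFF at 96 h, 11.3% of thinned cells had both Ly6c2 and Ly6e, against 11.4% from the product of the single shares. In HOXA9 OFF at 96 h the pair was in 8.28% of cells against a product of 9.08%. Ly6e with Ly6g was below its product there, 7.19% (5.89 to 8.69) against 12.4%, and Ly6e with Ly6a above it, 1.60% (1.00 to 2.41) against 0.700%. Without thinning, 31.0% of cells with a Ly6g UMI also had Ly6e, against 55.7% of cells without Ly6g, and 37.2% against 27.4% had Ly6c2. After thinning, Ly6c2 with Ly6g was above its product, 9.81% (8.29 to 11.5) against 8.22%. The S100 classes had divided these genes in opposite directions.

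The other genes of the Ly6/uPAR fold were nearly silent. Of 32 listed, 27 were in the table and 8 had a UMI in some library. At the 2-fold size 0 of 27 were higher in CAF-1 OFF at 48 h and 1 of 27 in each of the other 3 comparisons, and 0 were lower. The gene was Plaur, the urokinase receptor uPAR that gives the fold its name and serves myeloid cell migration. Plaur was at 8.54, 23.4 and 41.5 CPM in the CAF-1 OFF arm and at 8.83, 99.8 and 232 CPM in HOXA9 OFF. At 96 h it was, like Ly6c2, a family gene past 2-fold in both arms. Cd59a, the complement inhibitor, was at 2.85 to 4.08 CPM in 5 libraries and at 0.284 CPM (1 UMI) in HOXA9 OFF at 96 h.

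The machinery that builds the GPI anchor of these proteins did not rise with them in HOXA9 OFF. Of 29 listed genes 28 were in the table, and their summed level was 804, 891 and 982 CPM in the CAF-1 OFF arm and 779, 620 and 457 CPM in HOXA9 OFF. In CAF-1 OFF 0 of 28 passed 2-fold at 48 h and 1 was higher at 96 h, beside 2.76% and 5.22% of all genes tested. It was Pigk, a subunit of the GPI transamidase (38.2 to 121 CPM). In HOXA9 OFF 1 of 28 was lower at 48 h (Pigf), beside 19.6% of all genes tested. At 96 h 4 were lower (Pigf, Pigp, Pigu and Gpaa1), beside 39.8%. Pigp, of the complex that starts the anchor, went from 102 to 71.0 and 21.6 CPM. Of the 28 genes, 12 averaged 20 CPM or more, the limit for the genes tested. The median log2 ratio of the list at 96 h was −0.34, against −0.56 over all genes tested.

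Interferon response genes, many of which share inducers with Ly6a, Ly6e and Ly6i, rose most in HOXA9 OFF at 96 h. Of 18 genes, 1 and 5 were higher in CAF-1 OFF at 48 h and 96 h and 6 and 15 in HOXA9 OFF, with 0 lower in any comparison. Beside these, 2.76%, 5.22%, 13% and 18.1% of all genes tested were higher. All but Rtp4, Bst2 and Ifitm3 stood under 10 CPM at 0 h, where the 10 CPM added leaves no room for a 2-fold fall. The summed level was 552, 1505 and 3001 CPM in the CAF-1 OFF arm and 473, 671 and 8392 CPM in HOXA9 OFF. Isg15, a ubiquitin-like modifier, was at 2.37, 14.3 and 33.2 CPM in the CAF-1 OFF arm and at 1.43, 16.6 and 499 CPM in HOXA9 OFF. Ifitm3, a membrane protein that blocks virus entry, was at 403, 1220 and 2567 CPM and at 329, 461 and 4378 CPM. It was the largest contributor to the sum in every library, and the CAF-1 OFF sums were mostly this gene. The median log2 ratio was 0.33 and 0.69 in the CAF-1 OFF arm and 0.60 and 3.64 in HOXA9 OFF. The step between 48 h and 96 h in HOXA9 OFF was the one in which Ly6a and Ly6i appeared.

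Markers of other cell types moved over the same libraries. The late granulocyte list summed to 33.7, 717 and 1195 CPM in the CAF-1 OFF arm and to 29.4, 10431 and 143449 CPM in HOXA9 OFF, and the eosinophil list to 228, 481 and 1265 CPM and to 1481, 19262 and 3212 CPM. Over the CAF-1 OFF libraries the megakaryocyte list went from 45.6 to 499 and 2687 CPM, the mast cell or basophil list from 259 to 1426 and 4000 CPM, the erythroid list from 111 to 272 and 359 CPM and the early granulocyte list from 6452 to 12997 CPM by 96 h. The last HOXA9 OFF library had 193 CPM of the early granulocyte list and at most 79.7 CPM of the megakaryocyte, mast cell or basophil and erythroid lists. The monocyte list summed to 681, 614 and 459 CPM in the CAF-1 OFF arm and to 481, 477 and 606 CPM in HOXA9 OFF. That last sum covers opposite moves, with Ccr2 going from 348 to 69.0 CPM while Csf1r went from 0 to 114, Ms4a6c from 5.49 to 226 and Fcgr1 from 3.58 to 72.4 CPM between 0 h and 96 h. The progenitor list went from 1067 to 965 CPM in the CAF-1 OFF arm and from 948 to 39.4 CPM in HOXA9 OFF. The T cell list was at 0 to 8.23 CPM. The part of these shifts in the Ly6 levels was not tested.

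The genes with the pattern most like that of a member over the 6 libraries were found by the root mean square difference between centred log2(CPM + 10) profiles, among the 4789 genes. For Ly6c2 they were Clec12a, an inhibitory lectin receptor of myeloid cells (0.329), Acpp (0.478) and Ltb4r1, a leukotriene receptor (0.530). Clec12a was at 51.5, 147 and 294 CPM in the CAF-1 OFF arm and 30.1, 607 and 482 CPM in HOXA9 OFF, with the same fall between 48 h and 96 h. For Ly6g they were Fpr1, the formyl peptide receptor of neutrophils (0.125), Asprv1 (0.208) and Chil1 (0.224). Fpr1 had 0 CPM in the 4 libraries other than HOXA9 OFF at 48 h (6.21 CPM) and 96 h (357 CPM). For Ly6e they were Vps37a (0.0587), Ankrd12 (0.0716) and Adipor2 (0.0744). Vps37a went from 14.3 to 32.1 CPM between 0 h and 96 h in HOXA9 OFF, a larger ratio than that of Ly6e, which the 10 CPM added before the log makes smaller. With 6 points, many genes share such a shape.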

How the data were processed

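The table deposited by the authors holds raw UMI counts per gene and cell for 6 libraries, made with the 10x Chromium 3′ v2 chemistry and mapped to mm10. Per the labels' processing notes Cell Ranger 3.0.1, Scanpy 1.4.6 and Seurat 3.0.1 were used, and the counting of reads shared between near-identical genes is not given in the sources used here. Cells were kept with 200 to 6000 genes and at most 10% mitochondrial UMIs, the limits the study states, and no doublets were removed (Scrublet in Scanpy 1.11.5 called 125 of 5872 cells, 2.13%, as an alternative).

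Libraries were assigned to groups by the labels, through the barcode suffix the labels give, and 0 columns were left unused for lack of a sample. UMIs were summed per library or cell class and divided by the total (CPM, floor 3 UMIs). With 1 library a group no test was run. Ratios and folds are plain CPM ratios, while log2 ratios, their medians and the 2-fold counts used log2(CPM + 10). All-gene shares between libraries were taken over 4789 genes averaging 20 CPM or more. Shares of cells used cells thinned to 1300 UMIs without replacement. Marker classes held at least 1 thinned UMI of Elane, Pf4, Car2, Cpa3 or Cd34, at least 1% of UMIs from Prg2 or from S100a8 plus S100a9, or at least 0.2% from Ltf, with 50 cells or more on each side. Genes named are the 7 members, the fixed lists, the markers, Chaf1b and the 3 nearest genes of members reaching 50 CPM. The members and lists were chosen with earlier results of these data known. Positions and promoters are from RefSeq (GRCm38.p6) and transcripts from GENCODE M1. The ratios and intervals were tested on simulated data. Analyses ran in Python 3.11.15 with NumPy 2.4.6, SciPy 1.17.1, pandas 2.3.3, Biopython 1.88 and matplotlib 3.10.9.

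Alternatives were another pseudocount, fold size, mitochondrial limit, thinning depth, total or scaling, and the removal of called doublets. A total without S100a8 and S100a9, the doublet and mitochondrial alternatives for marker classes and the scalings for all-gene shares were chosen after seeing the data.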

Additional observations from a re-analysis of the deposited data

Results flagged for a closer look

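Ly6c2 moved in opposite directions between 48 h and 96 h in the arms. The CPM ratio of 96 h to 48 h was 1.35 in CAF-1 OFF, from 169 to 228 CPM, and 0.773 in HOXA9 OFF, from 464 to 359 CPM. The share of thinned cells with a Ly6e UMI also went opposite ways, by 9.88 percentage points up in CAF-1 OFF from 0 h to 96 h and by −9.76 percentage points in HOXA9 OFF, where the Ly6e CPM rose. Each arm has 1 library per time, and neither difference between the arms was tested.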

How the results depend on the processing

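No paired analysis was possible because each group holds 1 library. The sign of a ratio changed only for Ly6a at 3 UMIs or fewer, from 0.04 to −0.06 in CAF-1 OFF at 96 h and from 0.02 to −0.02 in HOXA9 OFF at 48 h, both with at most 5% mitochondrial UMIs. Of 252 log2 ratios of members under other settings, 212 stayed within the interval of the reported value. The 7 ratios at or above 2-fold kept their sign in all 63 recomputations and their size in 61, the exceptions being Ly6a (0.53) and Ly6i (0.31) in HOXA9 OFF at 96 h with a pseudocount of 50 CPM. The members counted as higher were 2 instead of 1 in HOXA9 OFF at 48 h with a pseudocount of 1 CPM, with a total free of mitochondrial and ribosomal protein genes and at a 1.5-fold size, and 2 instead of 4 at 96 h with a pseudocount of 50 CPM and at a 4-fold size. At 96 h it was 5, with Ly6e added, under TMM factors, median-of-ratios factors and a 1.5-fold size. The count of lower members stayed at 0 in 44 of 44 recomputations, and the count of higher members was within 1.5-fold of that reported in 39 of 44. Only Ly6c2 and Ly6e had enough UMIs at 0 h to be counted as lower. The Gr1 antigen share depends on depth. Without thinning it was 4.48%, 26.9% and 42.5% in the CAF-1 OFF arm and 2.54%, 41.7% and 56.8% in HOXA9 OFF. With at least 2 UMIs asked for it was 1.11%, 5.62% and 7.32%, and 0.212%, 14.5% and 26.7%. At 650 UMIs per cell it was 7.82% and 13.3% in the CAF-1 OFF arm and 17.9% and 33.4% in HOXA9 OFF at 48 h and 96 h, and at 2600 UMIs 18.7% and 30.5%, and 38.6% and 51.2%. Of 242 marker-class ratios, 226 stayed within their interval. Of the 3 nearest genes, a pseudocount of 1 CPM kept 1 for Ly6c2, 1 for Ly6e and 2 for Ly6g.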
